A study of Homo sapiens with 12 samples.

Results

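The genes described here are the core of the Notch pathway as it could be read from the transcripts of MRC5 cells, an established line of human embryonic lung fibroblasts. They are the receptors NOTCH1, NOTCH2 and NOTCH3, the ligands JAG1, JAG2 and DLL1, and the target genes HES1, HES4, HEY1 and HEY2. These 10 genes were chosen by symbol from the 57500 genes of the count table, and each matched a single entry. RNA sequencing counts were available for 12 libraries in 4 groups of 3. Proliferating cells (Prol) were compared with cells made senescent by 20 Gy of X-rays (Sen(IR)), which the methods place at 10 to 12 days after irradiation. In the other groups the irradiated cells also received UK5099, an inhibitor of the mitochondrial pyruvate carrier, at 100 μM (Sen(IR)+UK5099), or CTPI2, an inhibitor of the mitochondrial citrate carrier SLC25A1 (Sen(IR)+CTPI2). Both compounds were added 1 day after irradiation and, per the methods, stayed in the medium for 12 days with regular renewal. CTPI2 was used at 15 or 30 μM in the study, and the labels do not say which dose was sequenced. All groups are 1 cell line, so nothing here extends over donors.

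Notch receptors are cut on the cell surface after a ligand on a neighbouring cell has pulled on them, first by ADAM proteases and then by gamma-secretase. The released intracellular part enters the nucleus and joins the DNA-binding protein RBPJ and a Mastermind coactivator, and this complex switches on HES and HEY genes, which encode transcriptional repressors. Without that fragment RBPJ binds corepressors. In fibroblasts made senescent by an oncogene, NOTCH1 activity is known to alter which secreted factors the cells make. Only transcripts were measured here, not receptor cleavage or protein.

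The promoters of HES1 and HES4 are shown because these 2 genes are direct Notch targets and had the largest fold changes of the tested targets between Prol and Sen(IR). RefSeq promoters on GRCh38.p14 matched 8 of the 10 genes, and DLL1 and HEY1 were not matched. The 250 bases before each start are written 5′ to 3′ on the strand of the gene, with the letters TGGGAA, the core of the RBPJ motif, in capitals. HES1 is from chr3:194135898-194136147 on the plus strand and HES4 from chr1:1000098-1000347 on the minus strand.
HES1: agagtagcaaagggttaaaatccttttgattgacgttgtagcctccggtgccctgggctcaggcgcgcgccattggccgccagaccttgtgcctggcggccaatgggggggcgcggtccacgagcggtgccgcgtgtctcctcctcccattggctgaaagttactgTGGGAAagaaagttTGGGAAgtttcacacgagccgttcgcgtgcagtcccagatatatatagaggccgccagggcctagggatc
HES4: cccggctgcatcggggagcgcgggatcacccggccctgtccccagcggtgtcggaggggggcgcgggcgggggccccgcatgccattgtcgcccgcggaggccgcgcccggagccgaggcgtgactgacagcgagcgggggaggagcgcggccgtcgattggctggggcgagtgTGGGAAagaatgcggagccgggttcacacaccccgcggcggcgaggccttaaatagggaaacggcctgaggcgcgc
HES1 held 2 cores, at 84 to 79 and 70 to 65 bases before the start, and HES4 held 1, at 76 to 71. In the GENCODE v44 annotation HES4 starts at 1000172, inside the stretch shown, so its positions hold for the RefSeq start only. Searched on both strands, the core was present in 3 of the 8 matched promoters, the third being HEY2, and in 20.8% of 35116 promoters of that length. At least 2 cores were present in 2.9% of them. The longest run shared by the HES1 and HES4 promoters was the 12 bases tgTGGGAAagaa, which contain the core. Of longer motifs only CGTGGGAA was searched, and it was found in HEY2 and in 0.72% of all promoters. HES1 and HES4 hold tgTGGGAA, with T in place of the C, at the start of their shared run. How many promoters hold that form was not counted. The N-box CACNAG, a sequence bound by HES proteins, had 3 matches in HES1 and 1 in NOTCH3, against 32% of promoters with at least 1. A match is a match of letters and was not tested as a binding site.

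Library totals ran from 20597736 to 28245693 counts. Levels are given as CPM, a gene's count relative to the total of its library, which was scaled by TMM factors of 0.953 to 1.05. The fibroblast label was checked against 10 markers, none of which was at 0, with a summed level of 25500 to 29200 CPM in Prol, 26200 to 27300 in Sen(IR), 23300 to 25500 in Sen(IR)+CTPI2 and 15600 to 16700 in Sen(IR)+UK5099. LMNB1, a nuclear lamin lost in senescence, was at 169 CPM in the Prol group and averaged 8.24 CPM in the untreated irradiated group. The study describes the 3 libraries of a group as independent experiments or conditions, while the labels give only a number, and the p-values measure the spread between these libraries. In bulk RNA, fewer expressing cells and less RNA per cell cannot be told apart.

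Expression was tested with edgeR's quasi-likelihood test over 16251 genes. A gene was called when its Benjamini-Hochberg adjusted p was under 0.05 and its log2 fold change was over 0.5 in either direction. Of the 10 genes 9 could be tested. HEY2 had a single count in 1 Sen(IR) library and 0 in the other 11, and 3 counts, taken as the floor, correspond to 0.117 to 0.141 CPM by group. HEY1 passed the filter on low counts through Prol alone and JAG2 only through the irradiated groups, each through groups where it is high, so neither adds support to a count or median that includes it. HES1 reached the filter's level in every group but Sen(IR)+UK5099, and HES4 in every group but Sen(IR)+CTPI2. HES1 therefore adds no support to the counts of genes lower with UK5099, nor HES4 to those with CTPI2. Between Prol and Sen(IR) 5 of the 9 tested genes were called higher and 4 lower, where 24.8% of all tested genes were called higher, 22.4% lower and 47.2% either way. The values of the 9 tested genes did not overlap between these groups, which was also so for 70.9% of all genes. Their median log2 fold change was 0.57, against 0.01 over all genes. Apart from JAG2 and HEY1, the ligands JAG1 and DLL1 were called higher and the targets HES1 and HES4 lower, whereas the receptors were split.

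**Figure D1:**
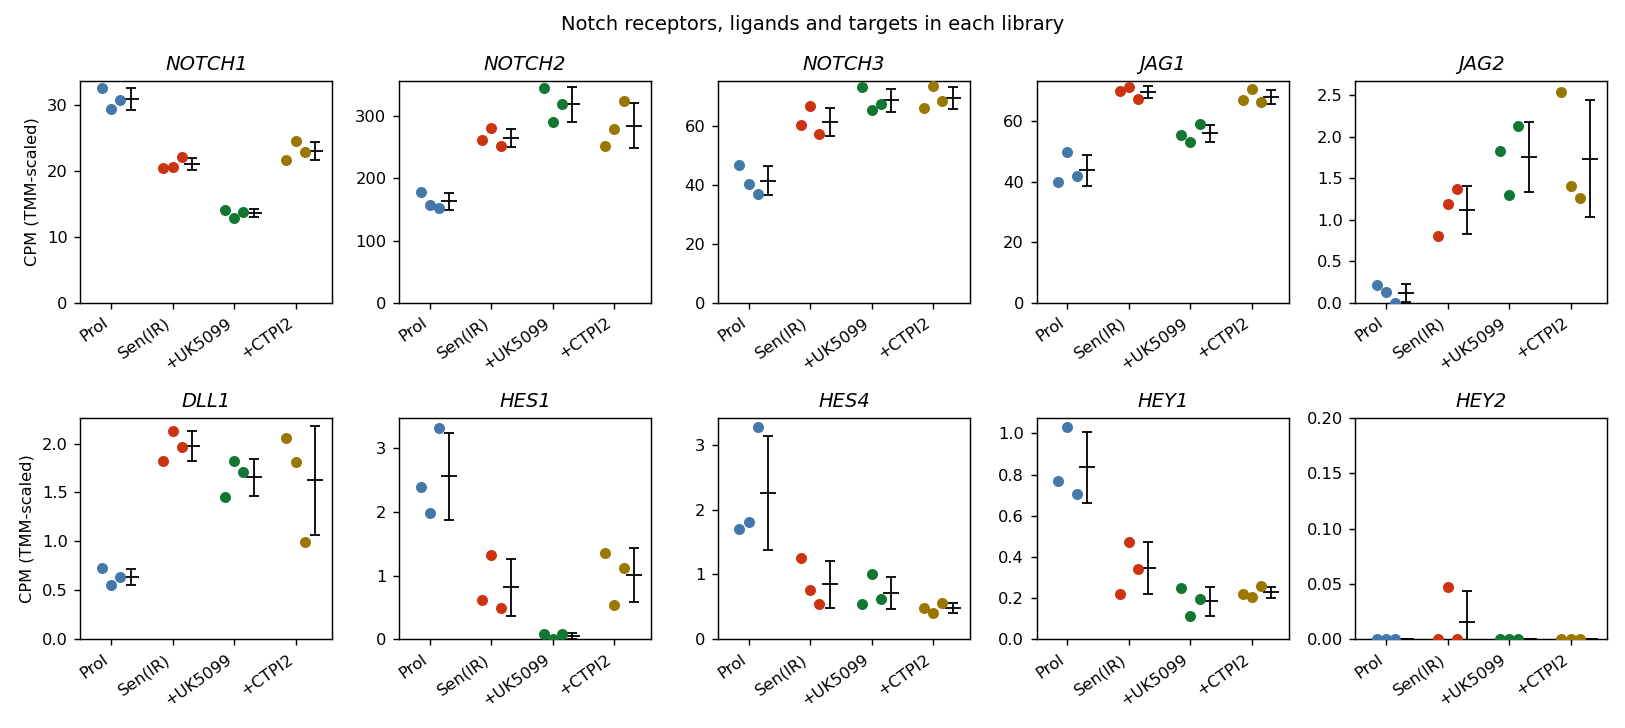
Level of each Notch gene in CPM on a linear axis from 0, with 1 panel a gene, 1 point a library and the mean with SD of the 3 libraries beside each group. NOTCH2 lay highest, at 163 to 319 CPM by group mean, and HES1 in Sen(IR)+UK5099 lay under its counting floor of 0.117 CPM.

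NOTCH1 and NOTCH2, the most widely expressed receptors of the family, moved in opposite directions in senescence. NOTCH1 (ENSG00000148400, chr9:136494433-136546048, minus strand, GRCh38) was at 32.6, 29.3 and 30.7 CPM in the Prol libraries and at 20.4, 20.5 and 22.1 CPM in Sen(IR). It fell by 0.56 on the log2 scale (SE 0.0756, edgeR adjusted p = 9.05e-07). Every Sen(IR) library was below every Prol library. With upper-quartile scaling the change was -0.44, short of the limit on the fold.

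NOTCH2 (ENSG00000134250, chr1:119911553-120100779, minus strand) was at 179, 158 and 153 CPM in Prol and at 262, 281 and 253 CPM in Sen(IR). Its log2 fold change was 0.70 (SE 0.0799, edgeR adjusted p = 6.21e-08), again without overlap. NOTCH2 has near-identical partial copies, of which the entry NOTCH2NL held 14 to 31 counts per library. Since the authors counted uniquely mapped reads, reads from the shared exons may be missing from the NOTCH2 count, and its level is uncertain to that extent.

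NOTCH3 (ENSG00000074181, chr19:15159038-15200995, minus strand), the receptor best known from vascular mural cells, was at 46.8, 40.4 and 37.0 CPM in Prol and at 60.4, 66.7 and 57.1 CPM in Sen(IR). The groups did not overlap, and the log2 fold change was 0.57 (SE 0.0785, edgeR adjusted p = 1.09e-06). Leaving out Prol replicate 3 brought it to 0.49, under the limit on the fold.

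Levels were compared between genes after division by the annotated exon length. That length takes in all annotated exons of a gene, whether or not they were used here, so comparisons between genes are approximate. On that scale NOTCH2 was the main receptor transcript in every group, with 9.73 ± 0.832 CPM per kilobase in Prol and 15.8 ± 0.864 in Sen(IR) (SD, n = 3). NOTCH3 followed with 4.40 ± 0.529 and 6.53 ± 0.517, and NOTCH1 with 2.46 ± 0.133 and 1.68 ± 0.0747. NOTCH1 thus made up 14.9% ± 0.808 of the 3 receptors' summed level in Prol and 6.99% ± 0.642 in Sen(IR). NOTCH2 made up 58.7% ± 0.167 and 65.9% ± 0.158, and NOTCH3 held 26.5% ± 0.971 and 27.1% ± 0.647. These shares are descriptions, with no test.

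JAG1 (ENSG00000101384, chr20:10637684-10673999, minus strand), a ligand that can pass Notch activity from cell to cell, was at 40.1, 49.8 and 41.9 CPM in Prol. In Sen(IR) it was at 70.2, 71.5 and 67.5 CPM. All 3 Sen(IR) libraries were higher, with a log2 fold change of 0.67 (SE 0.07, edgeR adjusted p = 1.72e-08). An RNA on the other strand overlaps 3.29% of its exon bases, and the sources do not say whether the libraries kept strand.

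JAG2 (ENSG00000184916, chr14:105140982-105168824, minus strand), a second ligand of the Jagged type, was close to undetected in Prol, with 5, 3 and 0 counts, and had 18, 25 and 28 counts in Sen(IR). In CPM these were 0.213, 0.129 and 0 against 0.801, 1.19 and 1.37. The Prol mean of 0.114 CPM lay below the floor of 0.123 CPM. JAG2 was higher in Sen(IR), whose mean was 9.12 times that floor (edgeR adjusted p = 2.28e-05). The 95% interval of the JAG2 log2 fold change was 2.11 to 4.47. A neighbour on the same strand overlaps 7.33% of its exon bases.

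DLL1 (ENSG00000198719, chr6:170282206-170306565, minus strand), a ligand of the Delta type, was at 0.725, 0.558 and 0.632 CPM in Prol and at 1.82, 2.13 and 1.96 CPM in Sen(IR). The groups did not overlap, and the log2 fold change was 1.62 (SE 0.292, edgeR adjusted p = 3.91e-05). FAM120B on the other strand overlaps 9.69% of the DLL1 exon bases.

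DLL4, another Delta ligand and best known from endothelium, belongs to the wider pathway list and went the other way. It was at 66.1, 49.2 and 70.4 CPM in Prol and at 12.8, 12.04 and 11.6 CPM in Sen(IR). Its log2 fold change was -2.35 (SE 0.131, edgeR adjusted p = 3.61e-13). The endothelial markers PECAM1 and CDH5 were at most 0.351 and 0.219 CPM in any library, while TEK, which held nearly all of the summed level of the 7 endothelial markers, was at 172 CPM in Prol and 360 CPM in Sen(IR). The part of TEK-expressing cells in the DLL4 result was not tested. Per exon length, DLL4 made up 72.2% ± 6.07 of the summed level of JAG1, JAG2, DLL1 and DLL4 in Prol and 23.8% ± 0.943 in Sen(IR) (SD, n = 3). JAG1 made up 26.8% ± 6.05 and 69.8% ± 0.283. The leading ligand transcript was therefore DLL4 in Prol and JAG1 in Sen(IR).

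**Figure D2:**
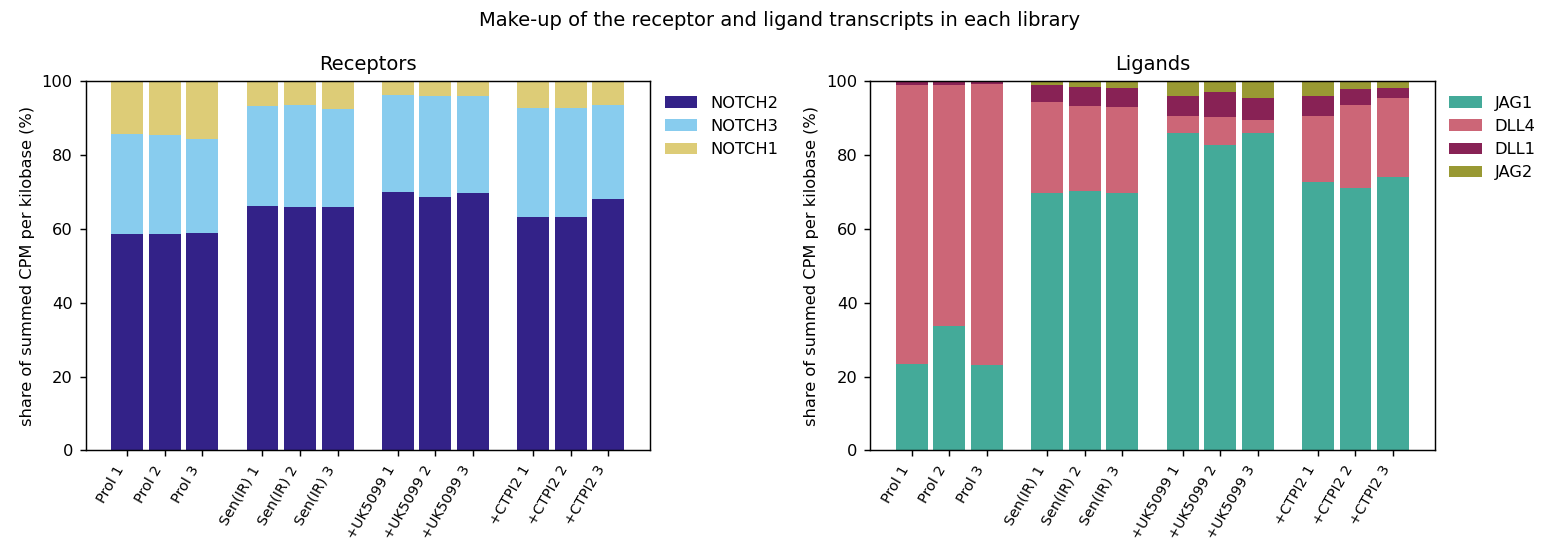
Share of each receptor (left) and each ligand (right) in the summed CPM per kilobase of exon, in percent, with 1 stacked bar for each of the 12 libraries. DLL4 averaged 72.2% of the ligand level in Prol, where it was the widest band, and 5.15% in Sen(IR)+UK5099.

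The target genes were low throughout. HES1 (ENSG00000114315, chr3:194136148-194138732, plus strand), the classical Notch target, was at 2.39, 1.98 and 3.31 CPM in Prol and at 0.623, 1.33 and 0.490 CPM in Sen(IR). Its log2 fold change was -1.65 (SE 0.366, edgeR adjusted p = 0.000391). The lowest Prol library stood above the highest Sen(IR) library.

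HES4 (ENSG00000188290, chr1:998962-1000172, minus strand), a related repressor, was at 1.71, 1.80 and 3.27 CPM in Prol and at 1.25, 0.759 and 0.539 CPM in Sen(IR). The log2 fold change was -1.41 (SE 0.336, edgeR adjusted p = 0.00082), without overlap. HEY1 (ENSG00000164683), a repressor of the same superfamily, was at 0.768, 1.03 and 0.706 CPM in Prol, which is 18, 24 and 19 counts. In Sen(IR) it was at 0.222, 0.474 and 0.343 CPM, or 5, 10 and 7 counts. Its log2 fold change of -1.26 (SE 0.41, edgeR adjusted p = 0.00966) became -1.01 with an adjusted p of 0.0541 when Sen(IR) replicate 1 was left out, the highest of its alternatives, which began at 0.0082.

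Of 7 markers of smooth muscle and pericytes, cells in which Notch is known to act, 6 could be tested between Prol and Sen(IR), and 3 were called lower and 1 higher. The contractile genes ACTA2 and CNN1 and the proteoglycan CSPG4 were lower, with ACTA2 at 538 CPM in Prol and 72.8 CPM in Sen(IR). The pericyte marker RGS5 was higher, at 7.50 CPM in Prol and 15.9 CPM in Sen(IR) (log2 fold change 1.09). MYH11, a defining marker of smooth muscle, and KCNJ8 were not called, and MYH11 was at 0.546 to 0.792 CPM by group mean. The summed level of the 7 markers, mostly ACTA2 in Prol, was 631 to 760 CPM in Prol, 149 to 155 in Sen(IR), 143 to 153 in Sen(IR)+CTPI2 and 88.4 to 95.6 in Sen(IR)+UK5099, and none of the 7 was at 0 in every library. Their part in the result was not tested.

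**Figure D3:**
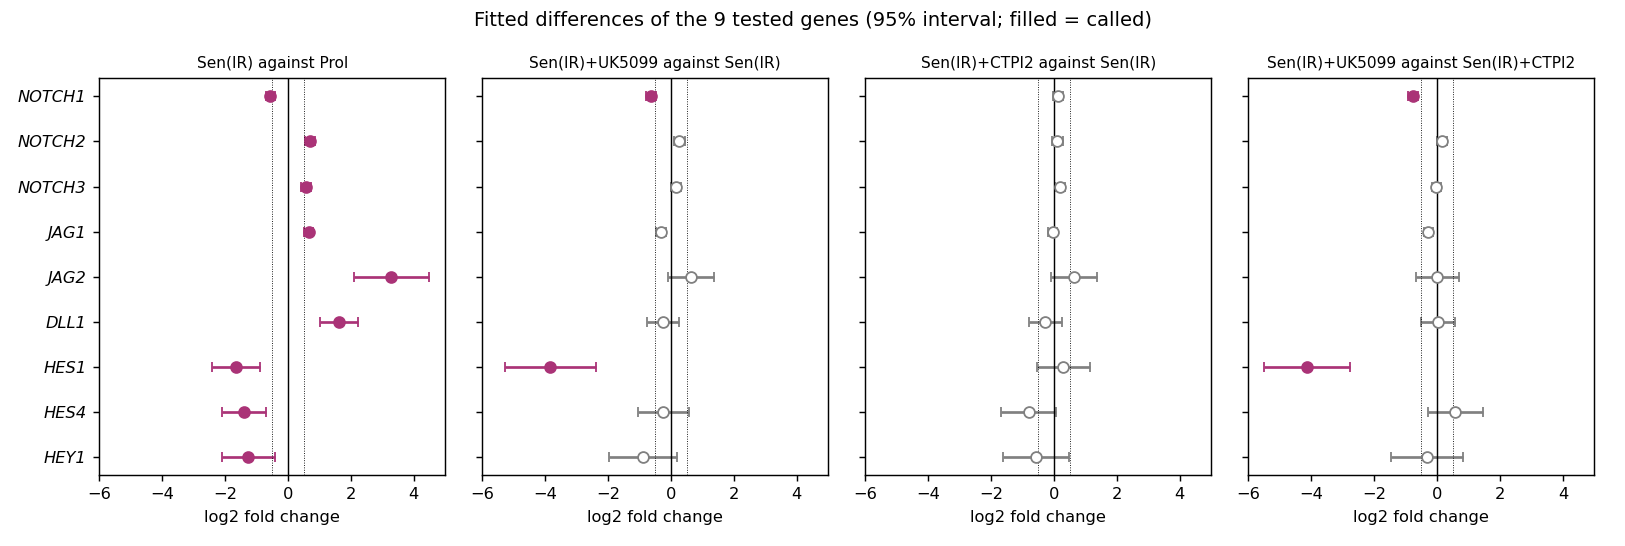
Fitted log2 fold change of the 9 tested Notch genes in 4 comparisons, with 95% confidence intervals and dotted lines at the limit of 0.5 in either direction. Filled points pass the call rule, which 9 genes did between Sen(IR) and Prol, 2 with UK5099 and 0 with CTPI2 against Sen(IR), and 2 between the inhibitors, and the fitted positions of HES1 with UK5099 and of JAG2 against Prol are no measure of size because a group mean is under the floor.

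With UK5099, 2 of the 9 tested genes, NOTCH1 and HES1, were called lower than in Sen(IR), and 0 were called higher. Of all tested genes 20.8% were called in this comparison, 8.76% higher and 12.1% lower, so the share among the Notch genes is near the background. Of the 10 fibroblast markers 5 were called lower with UK5099 than in Sen(IR), among them COL3A1 (-1.75 on the log2 scale), COL1A1 (-1.56) and PDGFRA (-0.95), and 0 higher. LMNB1 and MKI67 were also called lower with UK5099, by -1.71 and -3.54 on the log2 scale. The senescence marker CDKN1A was not called, at 0.06. Against Sen(IR), CTPI2 left LMNB1 and MKI67 uncalled, at -0.15 and 0.18. The part of the fibroblast, proliferation and senescence markers in the results of this comparison was not tested. The Sen(IR) libraries are shared with the comparison above and with that of CTPI2. NOTCH1 was at 14.1, 12.9 and 13.8 CPM with UK5099, below every Sen(IR) library. Its log2 fold change was -0.63 (SE 0.0804, edgeR adjusted p = 1.2e-06), and against Prol it was -1.19 (SE 0.0776, edgeR adjusted p = 4.52e-12).

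HES1 nearly vanished with UK5099, with 2, 0 and 2 counts, where the Sen(IR) libraries held 14, 28 and 10. The UK5099 mean of 0.0534 CPM lies under the counting floor of 0.117 CPM. HES1 was lower than in Sen(IR), whose mean was 6.94 times that floor (edgeR adjusted p = 0.000101). It was also lower than in Prol, whose mean was 21.8 times that floor (edgeR adjusted p = 1.27e-08). The 95% intervals of the log2 fold change were -5.28 to -2.39 against Sen(IR) and -6.68 to -4.3 against Prol. Floors cover counting error only. The other detected targets did not follow HES1 past the threshold. HES4 was at 0.538, 1.00 and 0.620 CPM, with a log2 fold change of -0.24 (SE 0.386, edgeR adjusted p = 0.651, 95% interval -1.04 to 0.56). HEY1 had 6, 3 and 5 counts, with a log2 fold change of -0.90 (SE 0.517, edgeR adjusted p = 0.167, 95% interval -1.97 to 0.18). Whether HES1 differed from HES4 or HEY1 in its response was not tested.

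A pair of genes passed the adjusted p but not the limit on the fold. JAG1 was at 55.7, 53.4 and 59.1 CPM with UK5099, below all Sen(IR) libraries, with a log2 fold change of -0.32 (SE 0.0689, edgeR adjusted p = 0.000698). NOTCH2 was at 346, 291 and 320 CPM, above all of them, with 0.27 (SE 0.0787, edgeR adjusted p = 0.00821). NOTCH3, JAG2 and DLL1 had log2 fold changes of 0.16, 0.65 and -0.25, with edgeR adjusted p of 0.0908, 0.142 and 0.449. In all, 5 of the 9 genes did not overlap between UK5099 and Sen(IR), against 56.6% of all genes.

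CTPI2 gave 0 calls among the 9 tested genes in edgeR and 0 in DESeq2. In edgeR 1 gene, NOTCH3, had an unadjusted p under 0.05. Of all tested genes 0.166% were called, 0.0185% higher and 0.148% lower, so 0 of 9 is near the background. NOTCH1 was at 21.7, 24.5 and 22.9 CPM with CTPI2, and its log2 fold change from Sen(IR) was 0.13 (95% interval -0.03 to 0.29, edgeR adjusted p = 0.784). HES1 had 31, 13 and 26 counts and a log2 fold change of 0.30 (95% interval -0.55 to 1.15, edgeR adjusted p = 0.944). NOTCH3 was at 66.2, 73.4 and 68.6 CPM with a log2 fold change of 0.18 (edgeR adjusted p = 0.611).

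The values of the 9 genes overlapped between CTPI2 and Sen(IR) in every case, and 15.1% of all genes did not overlap. For the receptors and JAG1 the 95% intervals stayed within -0.18 to 0.34. They were wider for the rare transcripts, from -1.68 to 0.06 for HES4 and from -0.11 to 1.37 for JAG2, so changes within these intervals cannot be told from no change here.

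The inhibitors differed from each other in NOTCH1 and HES1. NOTCH1 was lower with UK5099 than with CTPI2, with a log2 fold change of -0.76 (SE 0.0792, edgeR adjusted p = 6.36e-08). HES1 was also lower with UK5099, and its CTPI2 mean was 8.59 times the counting floor of UK5099 (edgeR adjusted p = 2.59e-05). The 95% interval of the HES1 log2 fold change was -5.51 to -2.76. These 2 of the 9 genes were called lower and 0 higher, where 11.7% of all genes were called lower, 8.2% higher and 19.9% either way. JAG1 was also lower with UK5099, by a log2 fold change of -0.28 (edgeR adjusted p = 0.00202) that is under the limit on the fold. These 3 genes did not overlap between the inhibitors, against 53.6% of all genes.

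Relative to Prol, 4 genes were called higher and 4 lower with UK5099, where 53.1% of all genes were called, 26.9% higher and 26.2% lower. JAG1 was the gene not called, at 0.35 on the log2 scale. With CTPI2, 5 were called higher and 3 lower, where 46.8% of all genes were called, 24.8% higher and 21.9% lower, and NOTCH1 was not called at -0.42. None of the 9 genes overlapped with Prol in either comparison, and among all genes 74.5% did not overlap with UK5099 and 70.1% with CTPI2. The order of NOTCH1 by group mean was Prol, CTPI2, Sen(IR) and UK5099, in which CTPI2 and Sen(IR) overlapped. HES1 had the same order, with CTPI2 and Sen(IR) overlapping. NOTCH2 had the order UK5099, CTPI2, Sen(IR) and Prol, in which CTPI2 overlapped both neighbours. For JAG1 the order was Sen(IR), CTPI2, UK5099 and Prol, and Sen(IR) overlapped with CTPI2 only. NOTCH3 ran from CTPI2 through UK5099 and Sen(IR) to Prol and JAG2 from UK5099 through CTPI2 and Sen(IR) to Prol, and in both the irradiated neighbours overlapped. DLL1 was ordered Sen(IR), UK5099, CTPI2 and Prol, with overlap between the inhibitors. HES4 and HEY1 were highest in Prol and overlapped between neighbours among the irradiated groups.

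The wider pathway was read from a list of 63 other genes, of which 49 could be tested. In Sen(IR) against Prol 12 were called higher and 13 lower, which is 51.0% of those tested and close to the 47.2% of all genes (24.8% higher and 22.4% lower), against which the groups below can be read. The median log2 fold change was 0.11, against 0.01 over all genes. The receptor-cleaving group had 6 of 9 genes higher and 0 lower. NCSTN, the substrate-recruiting subunit of gamma-secretase, was at 193 CPM in Prol and 503 CPM in Sen(IR), a log2 fold change of 1.38 (SE 0.0516, edgeR adjusted p = 2.73e-16). APH1B, another subunit of that complex, changed by 1.41, PSEN2 by 0.50, the sheddase ADAM17 by 0.94 and FURIN, which processes the receptor precursor, by 0.86. Another gene on the same strand overlaps 38.68% of the PSEN2 exon bases, and genes on the other strand overlap 11.67% of those of ADAM17. With upper-quartile scaling 8 of the 9 were called higher.

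Among the corepressors that RBPJ can bind, 5 of 9 tested genes were lower and 1 higher in Sen(IR), and 4 were lower with upper-quartile scaling. TLE3 changed by -0.96 on the log2 scale, CTBP2 by -0.77, SPEN by -0.75 and CTBP1 by -0.52, while TLE1 changed by 0.60. Genes on the other strand overlap 34.19% of the CTBP2 and 14.33% of the CTBP1 exon bases. In the nuclear activation complex 1 of 9 was higher and 3 lower, 44.4% in all and near the 47.2% of all genes. MAML1, a Mastermind coactivator, changed by -0.77 and its relative MAML3 by 1.14, with CREBBP at -0.65 and SNW1 at -0.57. RBPJ itself had a log2 fold change of -0.20 and was not called.

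Smaller groups held the remaining calls. NEURL1B, a ubiquitin ligase that promotes ligand uptake, was 1 of 3 tested in its group and fell from 30.5 to 5.34 CPM, a log2 fold change of -2.51 (edgeR adjusted p = 2.21e-14). Of 4 non-canonical or soluble ligands EGFL7 changed by 1.27, DNER by 1.23 and MFAP2 by -1.37. Of 4 glycosylation genes RFNG changed by 0.55, and 3 were called with upper-quartile scaling. Genes on the other strand overlap 21.6% of the RFNG and 13.57% of the MFAP2 exon bases. Of 8 genes for receptor turnover NUMBL changed by 0.59 and NEDD4 by -0.74. HES6, the sole tested gene among the other HES and HEY genes, changed by -1.11. NOTCH4 was at most 1.04 CPM in any library and was not called.

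With UK5099, 4 pathway genes were called higher and 5 lower than in Sen(IR), which is 18.4% of the 49 and near the 20.8% of all genes (8.76% higher and 12.1% lower), with a median of -0.03 against 0.01 over all genes. DLL4 fell furthest, to 1.49, 2.45 and 1.24 CPM, a log2 fold change of -2.80 (SE 0.195, edgeR adjusted p = 7.4e-11). All 3 UK5099 libraries were below those of the other groups. DLL4 there made up 5.15% ± 2.03 of the ligand level, where JAG1 made up 84.9% ± 1.83 (SD, n = 3). MFAP2, a microfibril protein, changed by -1.24, NEURL1B by -0.93, the Deltex ubiquitin ligase DTX4 by -0.67 and the coactivator MAML2 by -0.58. EGFL7 changed by 0.75, the acetyltransferase KAT2B by 0.65, TLE1 by 0.56 and MAML3 by 0.50, and MAML3 was not called with RLE scaling, the size factors of DESeq2, or with DESeq2 itself.

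CTPI2 gave 0 calls among the 49 pathway genes in edgeR and in DESeq2, with 5 at an unadjusted edgeR p under 0.05, and a median of 0.00, where 0.166% of all genes were called. DLL4 was at 8.46, 11.4 and 9.74 CPM, below all Sen(IR) libraries, and was not called. Between the inhibitors 3 pathway genes were higher and 5 lower with UK5099, which is 16.3% of the 49, against 19.9% of all genes. DLL4 was again the largest, at -2.50 (SE 0.198, edgeR adjusted p = 8.24e-10), and DTX4 changed by -0.81, MAML3 by 0.67 and KAT2B by 0.55.

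**Figure D4:**
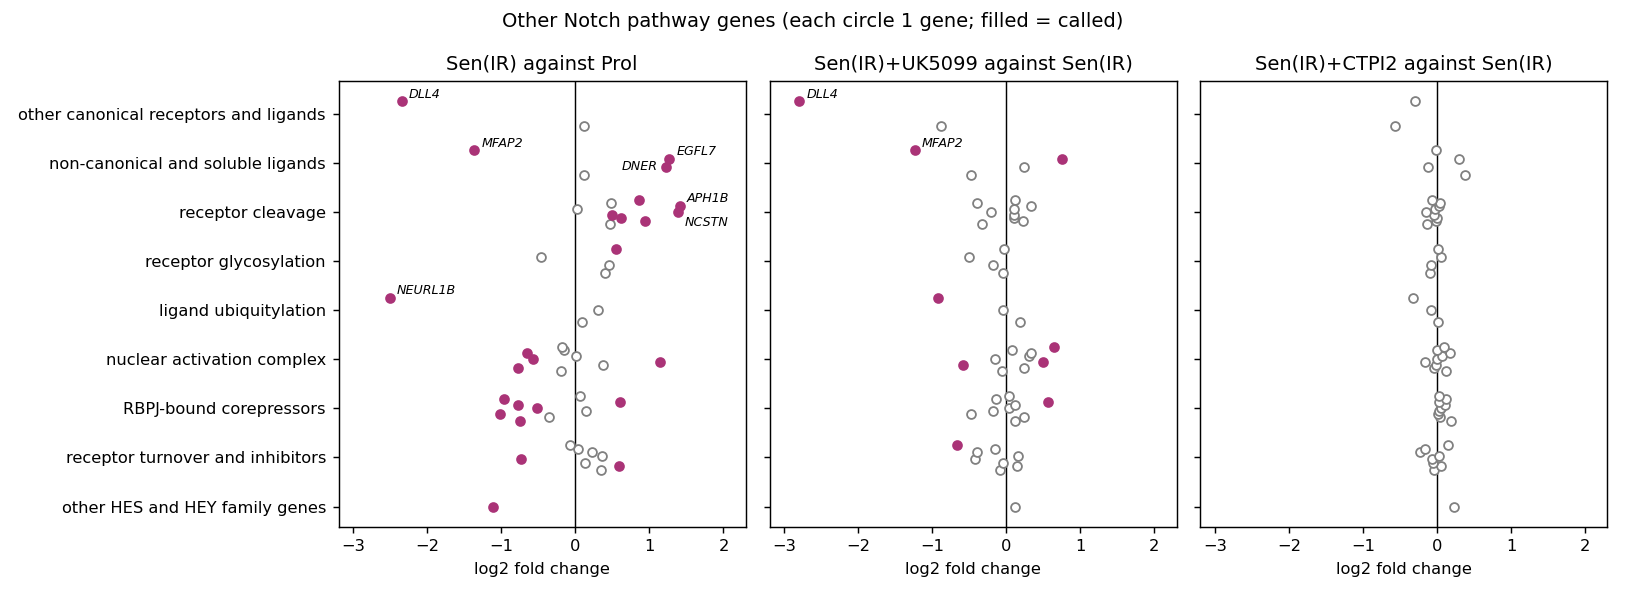
Log2 fold change of the 49 tested pathway genes by functional group in 3 comparisons, 1 circle a gene, filled where called, with circles spread vertically within a group for legibility. Filled circles number 25 between Sen(IR) and Prol, 9 with UK5099 and 0 with CTPI2, and DLL4 lies farthest left with UK5099, at -2.80.

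The genes whose 4 group means on the log2 scale were most like each Notch gene were found by distance after centring, as a description without a test. JAG1 was nearest to CD47 (distance 0.00876), NOTCH2 to LINC00467 (0.0211), NOTCH3 to RASSF8-AS1 (0.0214) and NOTCH1 to FENDRR (0.0395). DLL1 was nearest to TMEM134 (0.0846) and HEY1 to ITGA1 (0.14). The patterns of HES1, JAG2 and HES4 had no neighbour so close, with MYOCD (0.239), LINC00663 (0.322) and PRELID2 (0.328) as the nearest genes. Distances were not scaled to the size of the changes, and transcripts as rare as HES1, JAG2 and HES4 were left out as candidates. Their larger distances therefore cannot be read as a trait of their patterns.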

How the data were processed

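RNA from 12 MRC5 libraries was sequenced by the study as paired reads. Per the submitters' processing notes and the methods, the authors used Trimmomatic 0.36 for trimming and STAR 2.5.2b for alignment to GRCh38, and counted uniquely mapped exon reads with featureCounts of Subread 1.5.2. These counts were deposited as raw whole numbers. Strandedness was not given in the sources used here. Groups came from the sample labels.

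Counts were tested in R 4.3.3 with edgeR 4.0.16, in 1 quasi-likelihood fit of all 12 libraries with TMM factors and the default filter by group, and p-values were adjusted over 16251 genes. The call used an adjusted p of 0.05 and a log2 limit of 0.5. CPM used TMM-scaled totals, and levels per length used GENCODE v44 exon bases. HEY1 is annotated there as 1 block with its introns, so its level per length is understated. The scripts were tested on simulated data. Alternatives were RLE and upper-quartile scaling, no filter, DESeq2 1.42.0, other call limits, a replicate block, fits of the 2 compared groups and leaving out each library.

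The 10 Notch genes, the pathway list and the marker lists were chosen with earlier results of these data known. The text names all 10 genes, up to 12 called pathway genes per comparison by fold (some are counted but not reported by name here), others only where a result turns on them, and the nearest genes by distance among those over 1 on the log2 CPM scale. DLL4 beyond its calls, RBPJ, NOTCH4 and FAM120B fall outside that rule and were named with values known. Summed leukocyte markers were 1.03 to 6.93 CPM and epithelial markers 0.901 to 2.04 CPM by library.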

Additional observations from a re-analysis of the deposited data

How the results depend on the processing

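Counts over the 10 Notch genes and over the whole pathway list moved by over 1.5 times only with another limit on the fold. With a log2 limit of 1, the Notch genes called fell from 9 to 5 between Sen(IR) and Prol, from 2 to 1 between UK5099 and Sen(IR), from 2 to 1 between UK5099 and CTPI2, and from 8 to 5 between CTPI2 and Prol, and pathway genes from 25 to 10, from 9 to 2 and from 8 to 2 in the first 3. With no limit, the Notch genes between UK5099 and Sen(IR) rose from 2 to 4, and pathway genes to 38, 24 and 24. Other settings kept these counts within 1.5 times, while within the list the glycosylation genes called between Sen(IR) and Prol went from 1 to 3 with upper-quartile scaling. Upper-quartile scaling shifted the median of all genes by 0.121 between Sen(IR) and Prol, 0.14 between UK5099 and Prol and 0.111 between CTPI2 and Prol. Leaving out 1 library gave 8 to 9 Notch and 23 to 27 pathway genes between Sen(IR) and Prol, 2 and 8 to 10 between UK5099 and Sen(IR), 2 and 8 to 11 between the inhibitors, 0 for CTPI2 against Sen(IR), and 8 Notch genes for either inhibitor against Prol. Same-numbered libraries were not treated as pairs, as the labels do not say whether they were. Their deviations from the group means had correlations of -0.0511 to 0.0423. A replicate block gave 9, 2, 0 and 2 Notch genes in the main comparisons. Of 648 alternative values of single Notch genes, 3 called ones fell short of the limits (NOTCH1, NOTCH3 and HEY1, given above) and 10 uncalled ones changed sign. HES4 between UK5099 and Sen(IR) was -0.557 to 0.156 without 1 library (0.156 without Sen(IR) replicate 1). Between UK5099 and CTPI2, NOTCH3 was 0.0123 with upper-quartile scaling and -0.0628 to 0.027 without 1 library (0.027 without CTPI2 replicate 2, 0.0193 without UK5099 replicate 2). JAG2 was -0.168 to 0.392 (below 0 without CTPI2 replicate 2 or 3, or UK5099 replicate 1 or 3) and DLL1 -0.22 to 0.234 (below 0 without CTPI2 replicate 3 or UK5099 replicate 2). Intervals were widest for the rare transcripts JAG2, HES1, HES4 and HEY1.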
